A study of Mus musculus with 4 samples.

Results

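The transcripts evaluated here come from 54 genes that drive the cell cycle and DNA replication, measured by RNA-seq in basal and luminal cells of the developing mouse prostate. The genes were chosen by function as cyclins, cyclin-dependent kinases (CDKs), CDK inhibitors, the Rb and E2F regulators, replication factors, mitotic genes and the Myc pair, and all 54 were found among the 49671 genes of the deposited table. By role they comprised 8 G1 cyclins and kinases, 5 CDK inhibitors, 6 Rb and E2F genes, 10 replication genes, 14 genes of mitotic control, 9 genes of mitotic chromosomes and the spindle, and 2 Myc genes. A further 126 cell cycle genes, listed by function, served for comparison.

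A cell enters the cycle when mitogens raise D-type cyclins, which activate CDK4 and CDK6. These kinases phosphorylate Rb family proteins and free E2F factors to transcribe the genes of DNA replication, while CDK inhibitors hold the kinases back. Genes of mitosis are transcribed later, in G2 and M phase, so a population's mitotic transcripts follow its share of cells close to division. In the growing prostate, epithelial cells proliferate mainly at the distal tips of the ducts.

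Cells were isolated by FACS from the tips, the last 100 µm, of ventral prostate ducts of untreated CD-1 mice between P10 and P13 (postnatal days); the methods end this range a day earlier. Cells high for EpCAM were split by CD49f into multipotent basal cells (CD49f high) and basal-derived luminal cells (CD49f low). Each group has 2 libraries, numbered 1 and 3 for basal and 3 and 2 for luminal cells, and values are given in this order. Strain, age, the lack of treatment and the removal of cells positive for CD45, CD31 or CD140a were shared by both groups. The methods describe no genetic lineage mark for the luminal cells. The paper calls them basal-derived and describes multipotent basal cells as restricted to the distal region. Ventral lobes of several mice were used and the labels do not say which mice entered which library, so a p-value here measures only the spread between these samples, which may be technical.

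Values are normalized read counts scaled by the authors to a common total. The smallest values were spaced by what 1 read is worth, which was 6.26 and 6.49 in the basal and 19.4 and 31.2 in the luminal libraries. The recovered depth therefore ranged from 643268 reads in luminal replicate 2 to 3194288 in basal replicate 1, and both luminal libraries were shallower than both basal ones, so depth and cell type cannot be told apart. The 6 basal markers summed to 85022 and 66030 in the basal libraries and to 8945 and 6730 in the luminal ones, and the 7 luminal markers to 24148 and 24060 in basal and 54350 and 37178 in luminal libraries. All 6 basal markers and 4 of 7 luminal markers separated the groups in the labelled direction. Sums of 12 fibroblast and smooth muscle markers ranged from 135481 to 264318 in basal and from 83037 to 263510 in luminal libraries, with no marker of that list at 0 in any library, and Pdgfra, which encodes the CD140a used to remove cells, stood between 2575 and 8383. In this list Dcn alone was higher in both basal libraries, at 45830 and 47724 against 5770 and 20256 in the luminal ones. Des alone was higher in both luminal libraries, at 3207 and 2834 against 820 and 1715 in the basal ones. Leukocyte markers summed to at most 3519 with up to 4 of 8 at 0, endothelial markers to at most 1745, and erythroid markers to at most 280. Dissociation stress genes summed to 347295 in basal replicate 1 and to between 128896 and 199502 in the other libraries. With every library thinned to the depth of the shallowest, 11 members were at least 2-fold higher in luminal and 9 in basal cells, against 9 and 10 at full depth. The part of these cell types or of stress in the results below was not tested.

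The summed roles did not differ by the same ratio between the cell types. Transcripts of G1 cyclins and kinases were 2.87-fold more abundant in basal cells by summed value and those of replication 1.55-fold, whereas mitotic transcripts were 1.31-fold more abundant in luminal cells. Without basal replicate 1 the mitotic ratio was 0.995, from a luminal average of 7496 and 7531 in basal replicate 3, and without basal replicate 3 it was 1.92. Nuclear protein-coding genes held 76.0% and 74.7% of the total value in the basal and 57.3% and 64.2% in the luminal libraries. Scaled to that total, the G1 sum was 2.32-fold and the replication sum 1.24-fold higher in basal cells, and the mitotic sum 1.63-fold higher in luminal cells. Per 100000 recovered reads, the G1 group took 90.8 (95% Wilson interval 87.5 to 94.1) and 84.9 (81.7 to 88.2) reads in the basal libraries, and 28.9 (25.8 to 32.4) and 32.0 (27.9 to 36.7) in the luminal ones. These intervals cover counting error only. The basal and luminal G1 values were far apart, with little spread within either group. Replication genes took 31.5 (29.6 to 33.5) and 27.4 (25.6 to 29.3) reads in the basal libraries and 20.7 (18.1 to 23.7) and 17.3 (14.3 to 20.8) in the luminal libraries, again without overlap. Of these 10 genes, 3 (Pcna, Rrm1 and Mcm4) were at least 2-fold higher in basal cells, against 16.3% of all genes. Another 4 had a log2 fold change (luminal minus basal) above 0, against 45.9% of all genes. The replication sum without Pcna, Rrm1 and Mcm4 was not taken. The 23 mitotic genes took 19.5 (18.1 to 21.1) and 37.7 (35.6 to 39.9) reads in basal and 41.0 (37.3 to 45.1) and 33.7 (29.5 to 38.5) in luminal libraries. Here the groups overlapped, and basal replicate 1 stood below the other 3 libraries. In bulk samples fewer cycling cells and less RNA of these genes per cell cannot be told apart.

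**Figure D1:**
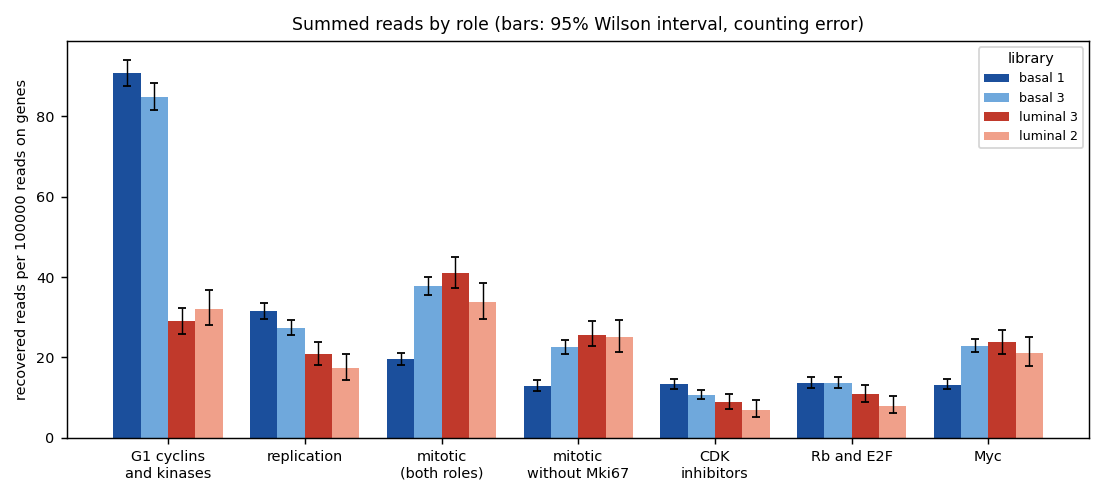
Reads of each role per 100000 reads recovered on genes (vertical axis, linear from 0) in each of the 4 libraries, with 95% Wilson intervals as bars. G1 cyclins and kinases stand at 90.8 and 84.9 in basal against 28.9 and 32.0 in luminal libraries, while for mitotic genes basal replicate 1 (19.5) lies below the other libraries (33.7 to 41.0).

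Gene by gene, 51 of the 54 members passed the filter on low values (each library of a group at 10 or more and the group average at 20 or more); 43 passed in both groups, 3 in basal cells alone and 5 in luminal cells alone. Cdkn2a, Cdkn2b and Aurka did not pass. No member reached an adjusted p under 0.05 in limma with Benjamini-Hochberg adjustment over 18737 genes, where 0.256% of all genes were called higher in luminal and 0.438% higher in basal cells. At an unadjusted limma p under 0.05 there were 11 members higher in basal and 1 higher in luminal cells, against 10.7% and 7.82% of all genes. The luminal one, E2f2, and Mycn among the basal ones passed the filter only through the group where they were higher and had at most 4 reads in any library. On recovered reads, edgeR called 2 members higher in basal cells and none higher in luminal cells, against 2.71% and 2.41% of all genes. DESeq2 likewise called 2 higher in basal cells and none in luminal cells, against 2.22% and 2.15%, with 8 members given no adjusted p. Both tools named Ccnd2 and Cdkn1c.

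By the ratio of group averages, 10 of the 51 were at least 2-fold higher in basal cells, where 16.3% of all genes were, and 9 at least 2-fold higher in luminal cells, where 18.3% were. Among the 43 that passed the filter in both groups these counts were 9 and 4. Both basal libraries lay above both luminal ones for 14 members (27.3% of all genes) and both luminal above both basal for 9 (23.6%), and the groups overlapped for 28. These shares were near the background, so the number of members past either rule is not a result about them. The median log2 fold change (luminal minus basal) of the members was 0.13, against -0.10 over all genes. By role, the median was -1.37 for the 8 G1 cyclins and kinases and 1.24 for the 13 genes of mitotic control that were kept. The medians of -1.67 for the 3 CDK inhibitors kept and -2.08 for the Myc pair include Cdkn2c and Mycn, which passed the filter through basal cells alone. Over the genes that passed in both groups the G1 and mitotic control medians were -1.23 (7 genes) and 0.79 (9 genes). The median of 1.24 over the 13 genes of mitotic control came to 0.61 without basal replicate 1.

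**Figure D2:**
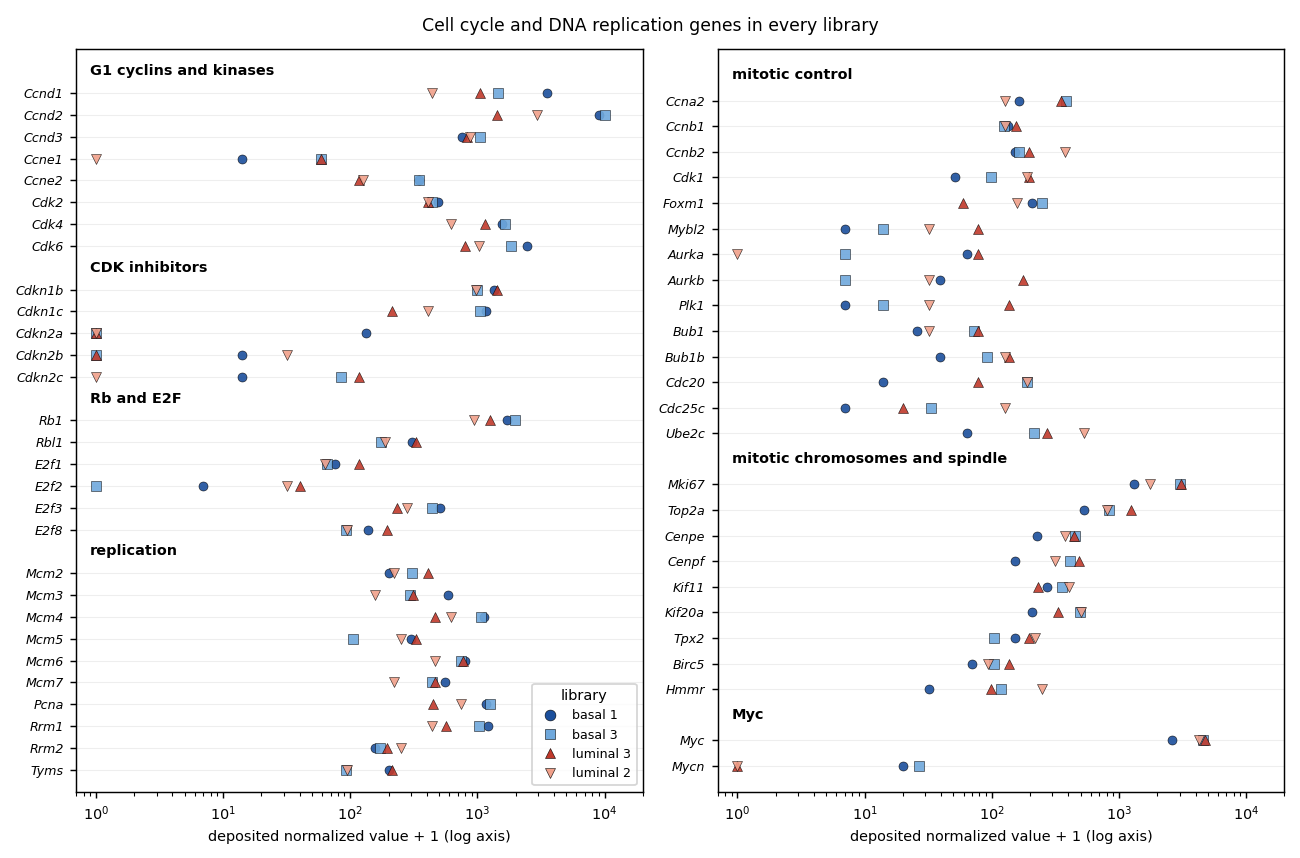
Deposited normalized value plus 1 (log axis) of each of the 54 members, by role, with a circle and a square for basal replicates 1 and 3 and an upward and a downward triangle for luminal replicates 3 and 2. Ccnd2, Cdk6, Ccne2 and Cdkn1c have both basal libraries to the right of both luminal ones, and for many mitotic genes basal replicate 1 lies farthest to the left.

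D-type cyclins carried the greater part of the G1 difference. Ccnd2 (ENSMUSG00000000184, GRCm38 chr6:127125162-127152193), which encodes cyclin D2, was measured at 8993 and 10166 in basal and at 1413 and 2929 in luminal libraries. Both basal libraries were well above both luminal ones, and the ratio of averages was 4.41. Its log2 fold change was -2.23 ± 0.38 (SE) with a limma adjusted p of 0.0688, and the adjusted p was 0.0039 in edgeR and 0.000149 in DESeq2. Over its 15 alternatives the adjusted p ran from 0.000149 to 0.43 and was under 0.05 in 4, and the fold change stayed between -2.76 and -1.71 when any library was left out.

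Ccnd1 (chr7:144929931-144939925), which encodes cyclin D1, the D-type cyclin most often tied to mitogen signalling, stood at 3557 and 1442 in basal and at 1046 and 436 in luminal libraries. The basal values lay above the luminal ones but differed from each other by more than the gap to luminal replicate 3, and the log2 fold change was -1.74 ± 0.60 (SE; limma adjusted p = 0.216). This fold change ran from -2.40 to -1.09 when any library was left out. Ccnd3, the third family member, was at 758 and 1052 in basal and 833 and 873 in luminal libraries. Its groups overlapped, with a log2 fold change of -0.07 ± 0.30.

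Set per kb of exon, D-type cyclin transcripts summed to 1798 and 1507 in the basal and to 467 and 503 in the luminal libraries. The exon length joins all annotated exons of a gene, so shares and orders between genes depend on the annotation. Ccnd2 held 53.2% and 71.7% of this sum in basal libraries and 32.1% and 61.8% in luminal libraries. The share of Ccnd3 was 4.81% and 7.96% in basal cells and 20.3% and 19.8% in luminal cells, so that the cyclin whose level differed least made up more of the luminal pool. The luminal shares rest on 170 and 136 reads. Cyclins D1 and D2 differed in share between libraries of the same group: Ccnd1 held 42.0% in basal replicate 1 but 20.3% in basal replicate 3, and 47.5% in luminal replicate 3 but 18.4% in luminal replicate 2.

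**Figure D3:**
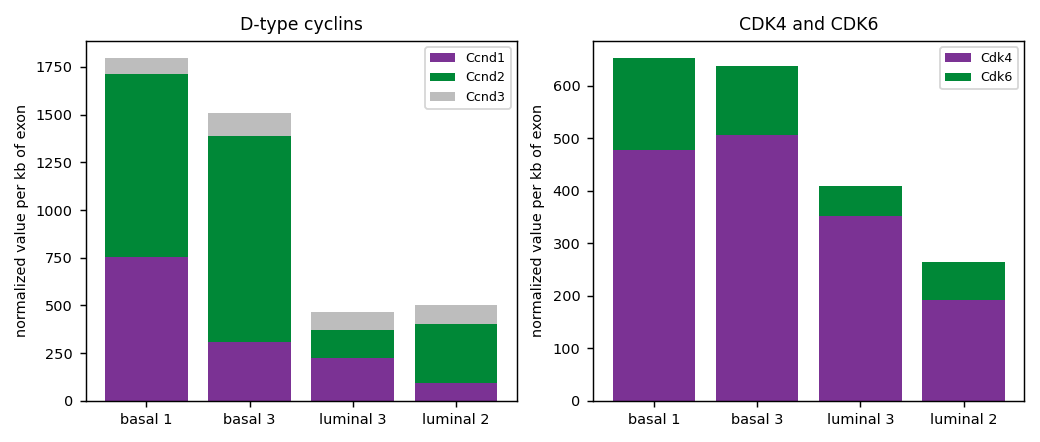
Normalized value per kb of exon (linear axis from 0) of the D-type cyclins (left) and of Cdk4 and Cdk6 (right), stacked by gene for each library. The cyclin stacks reach 1798 and 1507 in basal and 467 and 503 in luminal libraries, and the kinase stacks 653 and 637 in basal and 408 and 265 in luminal libraries.

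The kinases that bind D-type cyclins followed the same order. Cdk6 was at 2449 and 1832 in basal and 794 and 1028 in luminal libraries (log2 fold change -1.23 ± 0.29, limma adjusted p = 0.0892), and Cdk4 at 1553 and 1643 in basal and 1142 and 623 in luminal libraries (-0.92 ± 0.36, limma adjusted p = 0.263). Neither gene's groups overlapped. The adjusted p of Cdk6 ran from 0.0569 to 0.45 over its alternatives and passed 0.05 in none of them. Without Ccnd1 and Ccnd2, the summed value of the other 6 G1 genes was still 1.71-fold higher in basal cells, at 5605 and 5364 against 3350 and 3054. Cdk2, the kinase partner of E-type cyclins, differed little, at 488 and 435 in basal and 407 and 405 in luminal libraries.

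Of the E-type cyclins, which act at the entry into S phase, Ccne2 was at 344 in both basal libraries and at 116 and 125 in the luminal ones. The groups were separate, with a log2 fold change of -1.51 ± 0.49 (limma adjusted p = 0.194), but the luminal values are 6 and 4 reads. Ccne1 rested on 2 and 9 reads in basal and 3 and 0 in luminal libraries, and no fold is given because 3 reads in a luminal library are worth more than its basal level. Each of the 7 G1 genes that passed the filter in both groups, which leaves out Ccne1, had a log2 fold change below 0, as 54.1% of all genes had, but Cdk2 and Ccnd3 turned above 0 when libraries were scaled to their nuclear protein-coding total. Their median was -1.23, and that of -1.37 with Ccne1 stayed between -1.44 and -0.80 when any library was left out.

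Among the CDK inhibitors, Cdkn1c (ENSMUSG00000037664, chr7:143458339-143461050), an imprinted gene that encodes p57 and restrains G1 kinases, went with the cyclins rather than against them. It was measured at 1171 and 1052 in basal and at 213 and 405 in luminal libraries, a ratio of averages of 3.60. The basal libraries agreed closely and both lay above the luminal ones. The log2 fold change was -1.91 ± 0.42 with a limma adjusted p of 0.0757, while edgeR gave 0.0237 and DESeq2 0.0393. Over 15 alternatives the adjusted p ran from 0.0237 to 0.485 and was under 0.05 in 3.

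Cdkn1b, which encodes p27, did not separate the cell types, with 1340 and 1000 in basal and 1433 and 966 in luminal libraries. Its log2 fold change was 0.02 ± 0.32 (limma adjusted p = 0.978), with the higher and the lower value of each group nearly matched. The INK4 genes, whose products bind CDK4 and CDK6, were each at 0 reads in at least 1 library. Cdkn2a had 21 reads in basal replicate 1 and 0 in the other libraries, Cdkn2b had 2 reads in basal replicate 1 and 1 in luminal replicate 2, and Cdkn2c had 2 and 13 reads in basal and 6 and 0 in luminal libraries. A count of 0 allows up to 3 reads, which are worth 18.8 and 19.5 in the basal libraries and 58.1 and 93.5 in the luminal ones.

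The Rb and E2F genes had no common direction. Rb1, which encodes the retinoblastoma protein that D-type cyclin kinases inactivate, was at 1697 and 1968 in basal and 1259 and 935 in luminal libraries, without overlap (log2 fold change -0.75 ± 0.27, limma adjusted p = 0.236). E2f3, an activating E2F, was at 507 and 442 in basal and 232 and 280 in luminal libraries (-0.89 ± 0.39, limma adjusted p = 0.303). Both genes thus stood on the basal side, by less than 2-fold. E2f8, an atypical E2F that represses, overlapped between the groups at 138 and 91 in basal and 194 and 93 in luminal libraries (0.26 ± 0.73, limma adjusted p = 0.868). Rbl1, which encodes the Rb relative p107, and E2f1 overlapped too, with log2 fold changes of 0.10 and 0.28. E2f2 had 1 and 0 reads in basal and 2 and 1 in luminal libraries, so both groups were under the limit of 3 reads and no fold is given.

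No replication gene passed the test in limma, edgeR or DESeq2, and Pcna, Rrm1 and Mcm4 had both basal values above both luminal ones. Pcna, the sliding clamp of the replicative polymerases, was at 1159 and 1254 in basal and 445 and 748 in luminal libraries (log2 fold change -1.06 ± 0.35, limma adjusted p = 0.2). Rrm1, the large subunit of ribonucleotide reductase, was at 1215 and 1020 in basal and 562 and 436 in luminal libraries (-1.17 ± 0.31, limma adjusted p = 0.119). Mcm4, a subunit of the MCM helicase, was at 1127 and 1065 in basal and 465 and 623 in luminal libraries (-1.02 ± 0.30, limma adjusted p = 0.159). In each of these genes the basal values were close together and both above the luminal ones, at ratios of averages from 2.01 to 2.24.

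Among the remaining replication genes, Rrm2, the small subunit that limits ribonucleotide reductase and is made in S phase, lay on the luminal side at 157 and 169 in basal and 194 and 249 in luminal libraries, with 10 and 8 luminal reads. Its partner Rrm1 was thus on the other side. Mcm2, Mcm3, Mcm5, Mcm6, Mcm7 and Tyms overlapped between the groups, with log2 fold changes from -0.90 for Mcm3 to 0.69 for Mcm5. Per kb of exon the 6 MCM subunits, which assemble in equal number into the helicase, summed to 869 and 703 in basal and 624 and 458 in luminal libraries, and Mcm4 held 36.1% and 42.2% of this in basal and 20.8% and 37.9% in luminal libraries. The median log2 fold change of the 10 replication genes was -0.49, and it came to -0.04 without luminal replicate 2.

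**Figure D4:**
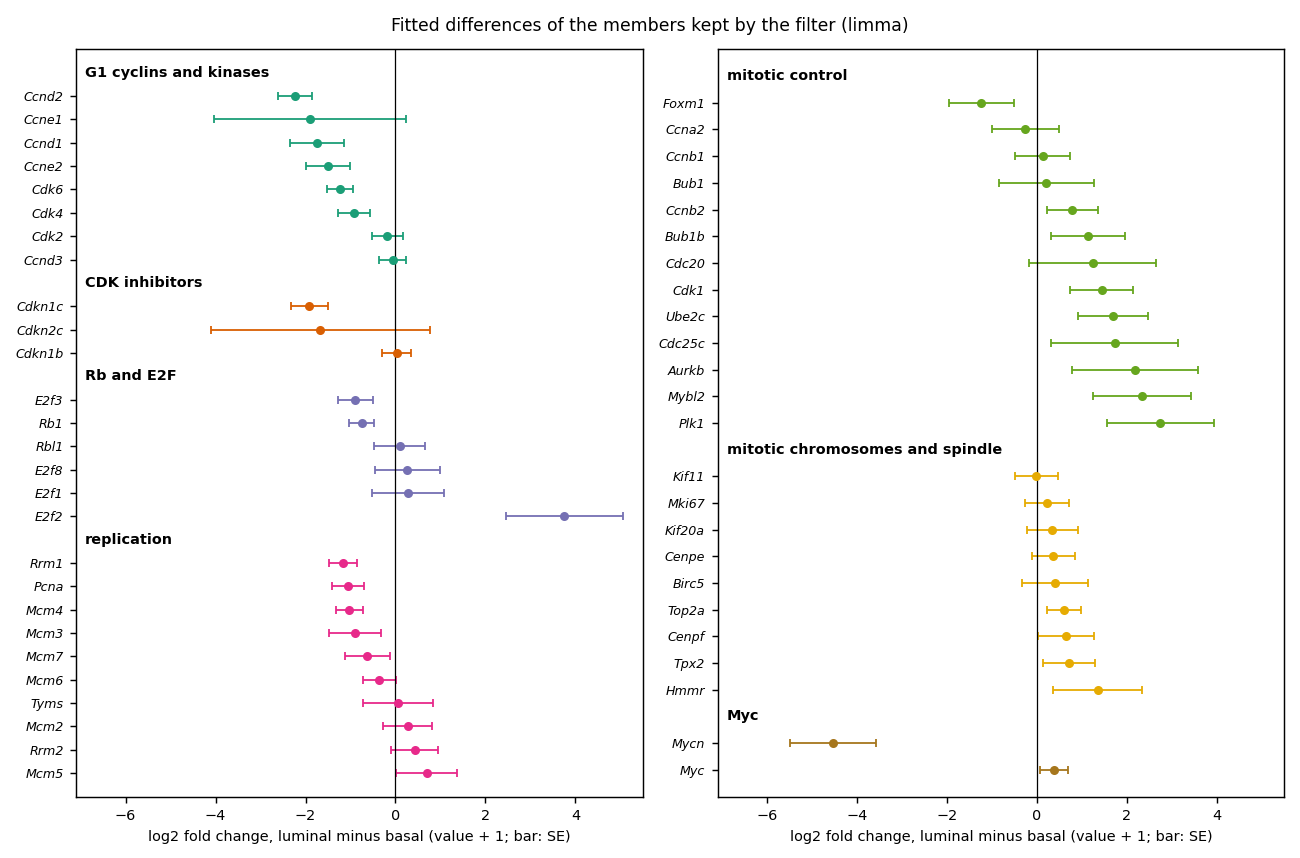
Log2 fold change (luminal minus basal, on value plus 1) of the 51 members kept by the filter, with the SE from limma as bars, ordered within each role. The 7 G1 genes that passed the filter in both groups lie below 0 (Cdk2 and Ccnd3 turn above it when libraries are scaled to their nuclear protein-coding total) and 19 of the 22 mitotic genes above it (18 to 21 under other scalings); values of genes with 0 to 3 reads in a group, such as Mycn, E2f2, Plk1 and Mybl2, depend on the added 1 and are no bounds.

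Mitotic genes leaned to luminal cells, on few reads. Of the 22 kept, 19 had a log2 fold change above 0 (18 to 21 under other scalings; 45.9% of all genes) and 8 were at least 2-fold higher in luminal cells (18.3% of all genes), but none passed the test in limma, edgeR or DESeq2. At an unadjusted p under 0.05 in that direction limma gave 0 (7.82% of all genes), edgeR 2 (9.35%), Plk1 and Mybl2, and DESeq2 0 (5.44%). Of the 8, Mybl2, Aurkb, Plk1 and Cdc25c passed the filter through luminal cells alone. The median log2 fold change was 0.68, and 0.50 over the 18 genes that passed in both groups, 4 of them past the fold and 15 above 0. The median over the 22 was 0.22 without basal replicate 1 and between 0.67 and 0.94 without any other library. Basal replicate 1 held the lowest value of the 4 libraries for 16 of the 23 mitotic genes, and basal replicate 3 exceeded it by a median of 1.00 on the log2 scale. A median luminal value of these genes rests on 7 reads.

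Cdk1 (ENSMUSG00000019942, chr10:69335146-69352938), the kinase that drives entry into mitosis, was at 50 and 97 in basal and 194 and 187 in luminal libraries. The groups were separate and the luminal libraries nearly equal, with a log2 fold change of 1.44 ± 0.71 (limma adjusted p = 0.353) on 10 and 6 luminal reads. Its cyclin partner Ccnb2 was also higher in both luminal libraries, at 150 and 162 in basal and 194 and 374 in luminal libraries (0.79 ± 0.57, limma adjusted p = 0.499), while Ccnb1 overlapped at 132 and 123 in basal and 155 and 125 in luminal libraries. Ube2c, the ubiquitin-conjugating enzyme of the anaphase-promoting complex, was at 63 and 214 in basal and 271 and 530 in luminal libraries. Both luminal values exceeded both basal ones, but the basal values differed more from each other than basal replicate 3 did from luminal replicate 3, and the log2 fold change was 1.70 ± 0.77 (limma adjusted p = 0.322). This fold change ran from 0.82 to 2.57 when any library was left out.

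Plk1, the polo-like kinase of mitosis, had 1 and 2 reads in basal and 7 and 1 in luminal libraries, and Mybl2, an activator of G2 and M genes, had 1 and 2 in basal and 4 and 1 in luminal libraries. Most luminal reads of both came from luminal replicate 3. Aurkb, Bub1b and Cdc25c, at least 2-fold higher in luminal cells by averages, had at most 9 reads in a luminal library. Foxm1, the transcription factor that activates mitotic genes, stood apart from them. It was at 207 and 247 in basal and 58 and 156 in luminal libraries (log2 fold change -1.24 ± 0.72, limma adjusted p = 0.419), on the basal side without overlap, with 3 and 5 luminal reads. Leaving out a library moved this fold change to between -1.94 and -0.53.

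Of the 9 genes of mitotic chromosomes and the spindle, 8 overlapped between the groups. Over all genes, both luminal libraries lay above both basal ones for 23.6%, and the reverse held for 27.3%. Mki67, which encodes the proliferation marker Ki-67, was at 1321 and 3021 in basal and 3079 and 1745 in luminal libraries, so the 2 libraries numbered 3 were alike and lay above the others (log2 fold change 0.21 ± 0.49). Top2a, topoisomerase II alpha, was at 526 and 831 in basal and 1239 and 810 in luminal libraries (0.60 ± 0.38, limma adjusted p = 0.453). Cenpf, a kinetochore protein, was at 150 and 409 in basal and 484 and 312 in luminal libraries (0.65 ± 0.62), and this turned to -0.07 without basal replicate 1. All these groups overlapped. Tpx2, which nucleates spindle microtubules, was the only gene of this role without overlap, at 150 and 104 in basal and 194 and 218 in luminal libraries (0.71 ± 0.58, limma adjusted p = 0.536). Hmmr, a spindle protein, was at 31 and 117 in basal and 97 and 249 in luminal libraries (1.35 ± 0.99, limma adjusted p = 0.504). With a library left out, the log2 fold change of Hmmr ran from 0.41 to 2.29.

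Within a library, sums of roles can be set against each other without regard to scaling. Mitotic over G1 values gave 0.215 and 0.444 in basal and 1.42 and 1.05 in luminal libraries. Mitotic over replication values gave 0.621 and 1.37 in basal and 1.98 and 1.96 in luminal libraries. Both ratios were higher in both luminal libraries than in either basal library. Leaving out Mki67, the most abundant mitotic transcript, the mitotic sum was 2587 and 4510 in basal and 5150 and 5018 in luminal libraries, a luminal over basal ratio of 1.43, and 1.13 without basal replicate 1. These values did not overlap, but per 100000 reads the Wilson interval of basal replicate 3 (20.9 to 24.3) overlapped those of luminal replicates 3 (22.8 to 28.9) and 2 (21.4 to 29.2).

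Myc was the most abundant member per kb of exon in both cell types, above 96.9% of all genes kept in basal and 97.6% in luminal cells. Its value was 2624 and 4547 in basal and 4763 and 4238 in luminal libraries. Basal replicate 1 was low and the other libraries were alike, and the log2 fold change of 0.38 ± 0.32 (limma adjusted p = 0.552) came to -0.02 without that library. Mycn was read 3 and 4 times in the basal libraries and not at all in the luminal ones, whose limit of 3 reads lies above the basal level, so no fold is given. After Myc, the order of levels per kb in basal cells was Ccnd2 (1018), Cdkn1c (545), Ccnd1 (531), Pcna (503) and Cdk4 (492). Among the last 4, neighbours overlapped between the basal libraries, while Cdkn1c lay above Cdk4 in both. In luminal cells the order was Cdk4 (272), Cdkn1b (264), Pcna (249), Mki67 (240) and Ccnd2 (231), neighbours that lie within the spread between the luminal libraries.

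Promoters were compared because the roles are known to use different elements: E2F sites in S-phase genes, and a cell cycle homology region (CHR) with CCAAT boxes in G2 and M genes. RefSeq windows of GRCm38.p6, from 250 bases before to 50 after the start, were searched for 41 members (47 windows, of which the 6 of G1 genes came from 5 genes), and not for Ccnd1, Ccnd2, Ccne2, Cdkn1c, Rb1, Mcm4, Ccna2, Foxm1, Aurkb, Cdc25c, Kif20a, Tpx2 and Myc. Searched on both strands were the E2F letters TTCCCGC or its variant TTGGCGC or the forms TTCGCGC or also TTGCCGC, the CHR as TTTGAA or else TTCGAA, the box CCAAT, and CACGTG, an E-box, the binding sequence of Myc. A CHR was found in 13 of 17 mitotic windows (76.5%), 2 of 10 replication windows and 0 of 6 G1 windows, against 19.2% of all 32851 windows. E2F letters were found in 7 of 10 replication windows (70.0%), 4 of 17 mitotic (23.5%) and 1 of 6 G1 windows (16.7%), against 9.57% of all. CCAAT occurred in 15 of 17 mitotic (88.2%), 9 of 10 replication (90.0%) and 2 of 6 G1 windows (33.3%), against 37.4% of all, and the E-box in 2 of 6 G1 and none of the mitotic windows, against 7.15% of all. A match is a run of letters, not a shown binding site.

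These windows were picked by direction, from a kinase and S-phase genes on the basal side and from mitotic genes on the luminal side. They therefore cannot link a motif to a direction. Rrm2 and Mcm5, replication genes with higher luminal averages, also hold E2F letters and are not shown. Matches to the searched motifs are in capitals. The windows are chr5:3343643-3343942 (plus strand), chr2:132253131-132253430 (minus strand), chr7:102441445-102441744 (plus strand), chr10:69352863-69353162 (minus strand), chr9:70421505-70421804 (minus strand) and chr2:164769679-164769978 (plus strand), printed 5′ to 3′ on the strand of the gene.
Cdk6: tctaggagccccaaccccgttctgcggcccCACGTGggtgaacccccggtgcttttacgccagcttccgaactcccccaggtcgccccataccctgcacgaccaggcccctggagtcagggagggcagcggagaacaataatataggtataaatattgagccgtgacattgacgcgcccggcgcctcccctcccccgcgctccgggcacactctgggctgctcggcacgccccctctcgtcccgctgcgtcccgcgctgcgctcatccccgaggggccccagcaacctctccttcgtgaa
Pcna: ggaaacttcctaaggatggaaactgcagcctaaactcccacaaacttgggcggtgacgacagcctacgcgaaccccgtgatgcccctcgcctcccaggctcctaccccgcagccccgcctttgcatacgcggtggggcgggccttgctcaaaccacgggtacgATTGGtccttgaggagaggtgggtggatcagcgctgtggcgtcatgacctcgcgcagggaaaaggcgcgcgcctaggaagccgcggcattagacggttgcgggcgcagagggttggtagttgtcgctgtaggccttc
Rrm1: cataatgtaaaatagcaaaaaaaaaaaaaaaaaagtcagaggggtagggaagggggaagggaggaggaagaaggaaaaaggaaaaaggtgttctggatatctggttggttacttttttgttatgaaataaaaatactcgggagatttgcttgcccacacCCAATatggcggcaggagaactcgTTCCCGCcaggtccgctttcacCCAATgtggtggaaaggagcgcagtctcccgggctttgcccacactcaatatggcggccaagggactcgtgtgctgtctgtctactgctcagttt
Cdk1: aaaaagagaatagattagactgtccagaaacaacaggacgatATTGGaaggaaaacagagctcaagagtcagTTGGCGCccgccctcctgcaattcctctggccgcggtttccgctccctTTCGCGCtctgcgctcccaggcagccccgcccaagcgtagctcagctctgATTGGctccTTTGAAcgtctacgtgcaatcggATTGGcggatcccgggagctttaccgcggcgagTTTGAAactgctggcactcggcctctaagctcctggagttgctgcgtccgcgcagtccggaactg
Ccnb2: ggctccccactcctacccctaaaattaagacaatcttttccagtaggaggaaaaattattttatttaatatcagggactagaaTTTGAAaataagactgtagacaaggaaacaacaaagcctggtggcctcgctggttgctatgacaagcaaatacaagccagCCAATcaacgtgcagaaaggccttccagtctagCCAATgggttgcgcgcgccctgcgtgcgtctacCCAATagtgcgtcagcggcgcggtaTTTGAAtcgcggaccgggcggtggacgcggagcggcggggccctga
Ube2c: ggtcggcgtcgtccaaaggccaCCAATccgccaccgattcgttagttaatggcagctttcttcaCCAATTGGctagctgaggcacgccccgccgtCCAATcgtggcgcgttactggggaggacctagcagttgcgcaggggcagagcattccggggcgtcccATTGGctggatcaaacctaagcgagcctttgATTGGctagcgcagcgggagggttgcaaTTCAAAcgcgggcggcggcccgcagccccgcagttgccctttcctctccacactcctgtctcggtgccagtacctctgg
The Cdk6 window holds the E-box, first base 220 before the start, and no other match. Pcna holds a reverse CCAAT at 87 before the start and no E2F match, and Rrm1 an E2F match at 67 before it between CCAAT boxes at 91 and 45. Cdk1 holds E2F matches at 178 and 130, CHR matches at 71 and 15 and 3 reverse CCAAT boxes. Ccnb2 has CHR matches at 167 before the start and at base 5 after it, with CCAAT boxes at 87, 54 and 21 before it, and Ube2c a reverse CHR at 29 below CCAAT boxes on both strands.

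Of the other 126 cell cycle genes, 125 passed the filter. limma and DESeq2 called none of them and edgeR called 1, higher in basal cells. Over all genes, edgeR called 2.71% higher in basal and 2.41% higher in luminal cells, DESeq2 2.22% and 2.15%, and limma 0.438% and 0.256%. At an unadjusted limma p under 0.05 there were 6 higher in basal and 3 higher in luminal cells, against 10.7% and 7.82% of all genes. The 50 genes of mitosis and cytokinesis had a median log2 fold change of 0.77, and 0.26 without basal replicate 1. In this group 16 were at least 2-fold higher in luminal and 2 in basal cells, against 18.3% and 16.3% of all genes, and 13 of the 16 passed the filter in both groups. The 45 genes of licensing and replication kept had a median of -0.28, with 3 and 5 past the fold, and it lay at 0.0091 without luminal replicate 2 and at 0.032 when libraries were scaled to their nuclear protein-coding total. The 22 genes of G1/S control had a median of -0.26, which turned to 0.045 under that scaling and to 0.11 without luminal replicate 2, and the 8 of the Myc network one of -0.38. All genes together had a median of -0.10.

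Among these genes, the inhibitor Cdkn1a, which encodes p21, stood on the basal side with Cdkn1c, at 1653 and 2423 in basal and 891 and 686 in luminal libraries (log2 fold change -1.35 ± 0.31, limma adjusted p = 0.0872). Tfdp2, an E2F partner, was at 2186 and 1533 in basal and 600 and 841 in luminal libraries (-1.36 ± 0.32, limma adjusted p = 0.0925, edgeR adjusted p = 0.0466, and 0.0466 to 0.48 over 15 alternatives). Both had all basal above all luminal values. Rfc3, a subunit of the clamp loader, and Pold1, the catalytic subunit of polymerase delta, stood on the basal side by luminal replicate 2 alone, with 1 read each there. Rfc3 was at 307 and 169 in basal and 213 and 31 in luminal libraries (-1.47 ± 1.06, limma adjusted p = 0.498), and Pold1 at 157 and 156 in basal and 155 and 31 in luminal libraries (-1.16 ± 0.97, limma adjusted p = 0.549).

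On the luminal side, Dlgap5, a spindle protein, was at 13 and 78 in basal and 329 and 156 in luminal libraries (log2 fold change 2.77 ± 1.10, limma adjusted p = 0.269). Kif22, a chromosome-arm kinesin, was at 56 and 45 in basal and 116 and 280 in luminal libraries (1.82 ± 0.80, limma adjusted p = 0.307). Espl1, the separase that cleaves cohesin, was at 63 and 39 in basal and 155 and 156 in luminal libraries (1.63 ± 0.75, limma adjusted p = 0.326). None of these overlapped between the groups. Cdc6, which loads the MCM helicase, was at 88 and 58 in basal and 213 and 125 in luminal libraries (1.18 ± 0.73, limma adjusted p = 0.44), also without overlap. These values rest on few reads. Both luminal libraries together held 22 reads of Dlgap5, 15 of Kif22, 13 of Espl1 and 15 of Cdc6.

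**Figure D5:**
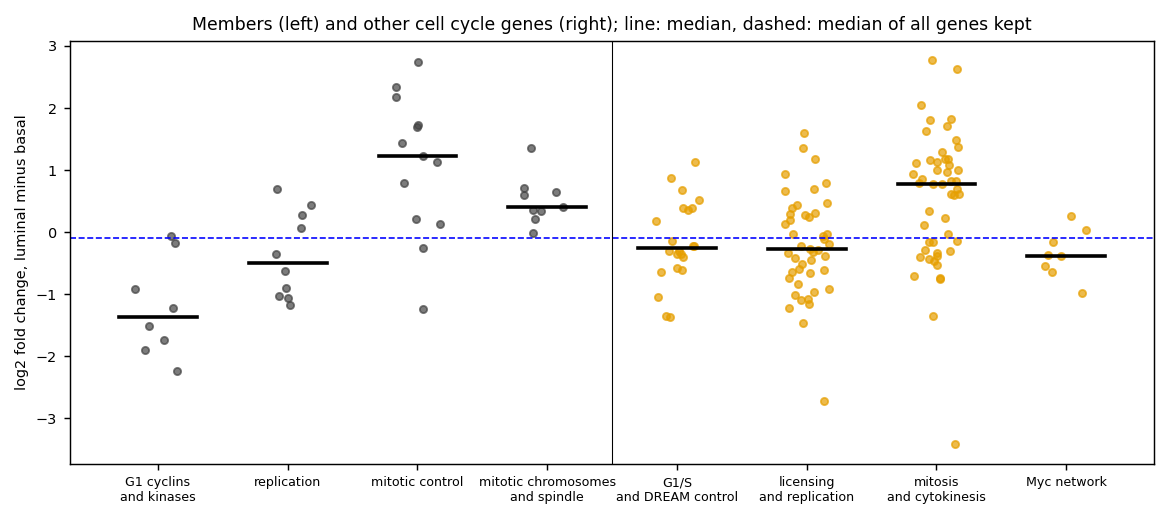
Log2 fold change (luminal minus basal) of each gene kept, for 4 roles of the members (grey) and the 4 groups of other cell cycle genes (orange); black lines are medians and the dashed line is the median of all genes (-0.10). Mitotic medians lie at 1.24, 0.40 and 0.77 (0.61, -0.074 and 0.26 without basal replicate 1), those of G1 cyclins and kinases and of the replication genes among the members at -1.37 and -0.49, and that of other licensing and replication genes at -0.28 (0.032 when libraries are scaled to their nuclear protein-coding total).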

How the data were processed

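RNA-seq of 4 libraries (2 basal, 2 luminal) was evaluated. Libraries were made with the Ovation SoLo kit. The authors mapped reads to GRCm38 (mm10) with STAR, counted them per gene with HTSeq, scaled each library to the same number of aligned reads and deposited this normalized signal as whole numbers; Picard is named in the submitters' processing notes. Counting mode, strand use and treatment of duplicates are not given in the sources used here, so overlapping and antisense genes cannot be told apart. All columns were mapped to a sample (0 unmapped).

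Whole reads were recovered from the step between low values (below 60 reads, tolerance 0.75); 97.9% to 99.1% of low values lay on it, and 528 genes, none of them members, did not. Symbols, exon lengths and coordinates came from GENCODE for GRCm38 (49412 of 49671 identifiers). Exon length joined all annotated exons of a gene, whichever transcript they belong to. A gene was kept when, in either group, both libraries reached 10 and their average 20. limma 3.58.1 (R 4.3.3) was fitted to log2(value + 1) with a trended prior, since the authors state no test; a fold of 2 or 0.5 follows their rule. With 2 against 2 libraries an exact test cannot pass 0.05. Recovered reads were also fitted with edgeR 4.0.16 and with DESeq2 1.42.0. The fits were tested on simulated data. Other tools were numpy 2.4.6, pandas 2.3.3, statsmodels 0.14.6 (Wilson intervals) and matplotlib 3.10.9.

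Members and lists were chosen with earlier results of these data known. The rule names, in each role, the 3 members with the largest fold change among those averaging 100 or more, and 4 other cell cycle genes in each direction; further members were named after their values were seen. Alternatives changed pseudocount, filter, scaling, depth, prior, model and fold and left out each library. Leaving out genes on another spacing, and the values by role without each library, were added after seeing the data.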

Additional observations from a re-analysis of the deposited data

How the results depend on the processing

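Counts of limma calls over all genes moved with nearly every choice. From 48 higher in luminal and 82 higher in basal cells, they came to 260 and 374 with pseudocount 20, 269 and 409 with the filter in both groups, 873 and 545 with thinned libraries, 223 and 321 without the trended prior, 452 and 508 in edgeR and 403 and 416 in DESeq2, and to 277 and 104 with quantile normalization; scaling to nuclear protein-coding genes gave 63 and 62. With no filter limma called 0 and 0, with 1410 and 3045 at an unadjusted p under 0.05. Leaving out a library gave 6 (without basal replicate 1) to 830 (without luminal replicate 3) in luminal and 14 (without luminal replicate 2) to 751 (without basal replicate 3) in basal cells. Members past the fold threshold, 9 luminal and 10 basal, became 4 luminal with the filter in both groups, 4 and 2 at a fold of 4, and 5 basal when libraries were scaled to their nuclear protein-coding total, where the all-gene median was 0.21 in place of -0.10. The medians of 3 roles kept their sign under all 3 scalings (G1 at most -0.91, replication at most -0.18, mitotic at least 0.71). The members' median log2 fold change of 0.13 ran from -0.18 to 0.48 when a library was left out. Of 270 values of the 18 members named by rule under alternatives, 256 kept their sign and their side of the threshold. Another 7 kept their sign and passed the threshold (Ccnd2, Cdkn1c). The other 7 changed sign: Cdkn1b with thinned libraries (-0.028) and without basal or luminal replicate 3, E2f8 without basal or luminal replicate 3, and Cenpf and Myc without basal replicate 1. Alternatives of filter, prior and spacing leave a log2 fold change unchanged, so their values could not change sign. With a library left out, Cdkn1b ran from -0.26 to 0.31, E2f8 from -0.27 to 0.79, Cenpf from -0.074 to 1.37 and Myc from -0.017 to 0.78. The cause was not tested. No paired analysis was possible because the groups share only 1 replicate number. Depth limits the luminal values of several roles, with a median of 3.5 reads for CDK inhibitors and 7 for mitotic genes.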
